A study of Mus musculus with 8 samples.

Results

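Matricellular proteins are secreted into the extracellular matrix and signal to cells through integrins and other surface receptors, while giving the tissue little of its structure. They are scarce in most adult tissue and are known for rising during injury, repair and fibrosis. The mRNA of 10 genes of this kind or closely tied to it was described here in dystrophic muscle. They were *Postn*, *Spp1*, *Tnc* and *Sparc*, the genes of the glycoproteins *Fn1* and *Fbn1* that build fibrils of the matrix, and the 4 thrombospondin genes *Thbs1*, *Thbs2*, *Thbs3* and *Thbs4*. The genes were chosen by symbol, with earlier results of these data known, and all 10 were found among the 55401 genes of the table and passed the filter on low values.

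The tissue was whole tibialis anterior (TA), a fast muscle of the lower leg, of male mice at 6 mo of age. WT mice were of the C57/Bl6 strain, and *mdx5cv* mice carried a mutation of *Dmd*, the gene of dystrophin, on the same background and served as a model of Duchenne muscular dystrophy (DMD). Each group held 4 muscles, and the labels name no treatment and do not say whether each muscle came from a separate mouse, so p-values measure the spread between these samples. The mutation is carried in the germline and is therefore present in all cell types of the mice. Bulk RNA-seq of total RNA had been summarised as normalized counts, which are reads per gene divided by a size factor for each library. The libraries held from 13175524 to 14921057 reads assigned to genes. *Dmd* itself was at 6954 ± 857 in WT against 3964 ± 388 in *mdx5cv* (SD, n = 4), with no overlap between the groups. Markers of mature fast fibers, such as *Ckm* and *Myh4*, summed to between 743873 and 1276480 normalized counts in every muscle, and were thus abundant throughout. Differences are given as log2 fold changes of the normalized count plus 1, *mdx5cv* minus WT, from limma with Benjamini-Hochberg adjustment over 13677 genes. A gene was called where the adjusted p was under 0.05 and the change was 1 or more in size on the log2 scale. In whole muscle, more cells of a type and more RNA per cell cannot be told apart.

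Of the 10 genes, 8 were higher in *mdx5cv* past this threshold and 0 were lower. The counts by edgeR and DESeq2 were also 8 and 0, and none was lower at an unadjusted p under 0.05 in limma. Among all genes tested, 10.3% were called higher and 3.27% lower. The median log2 fold change was 1.64 over the 10 genes and 0.00 over all genes tested. In 9 of the 10 genes every *mdx5cv* muscle lay above every WT muscle, an arrangement found for 20.3% of all genes tested. *Thbs2* had an adjusted p under 0.05 with a change short of the minimum, and *Thbs4* did not pass the test. Together the 10 genes took 0.0253% ± 0.00227 of the reads assigned to genes in WT libraries (SD, n = 4). In *mdx5cv* libraries they took 0.115% ± 0.0510 (SD, n = 4).

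**Figure D1:**
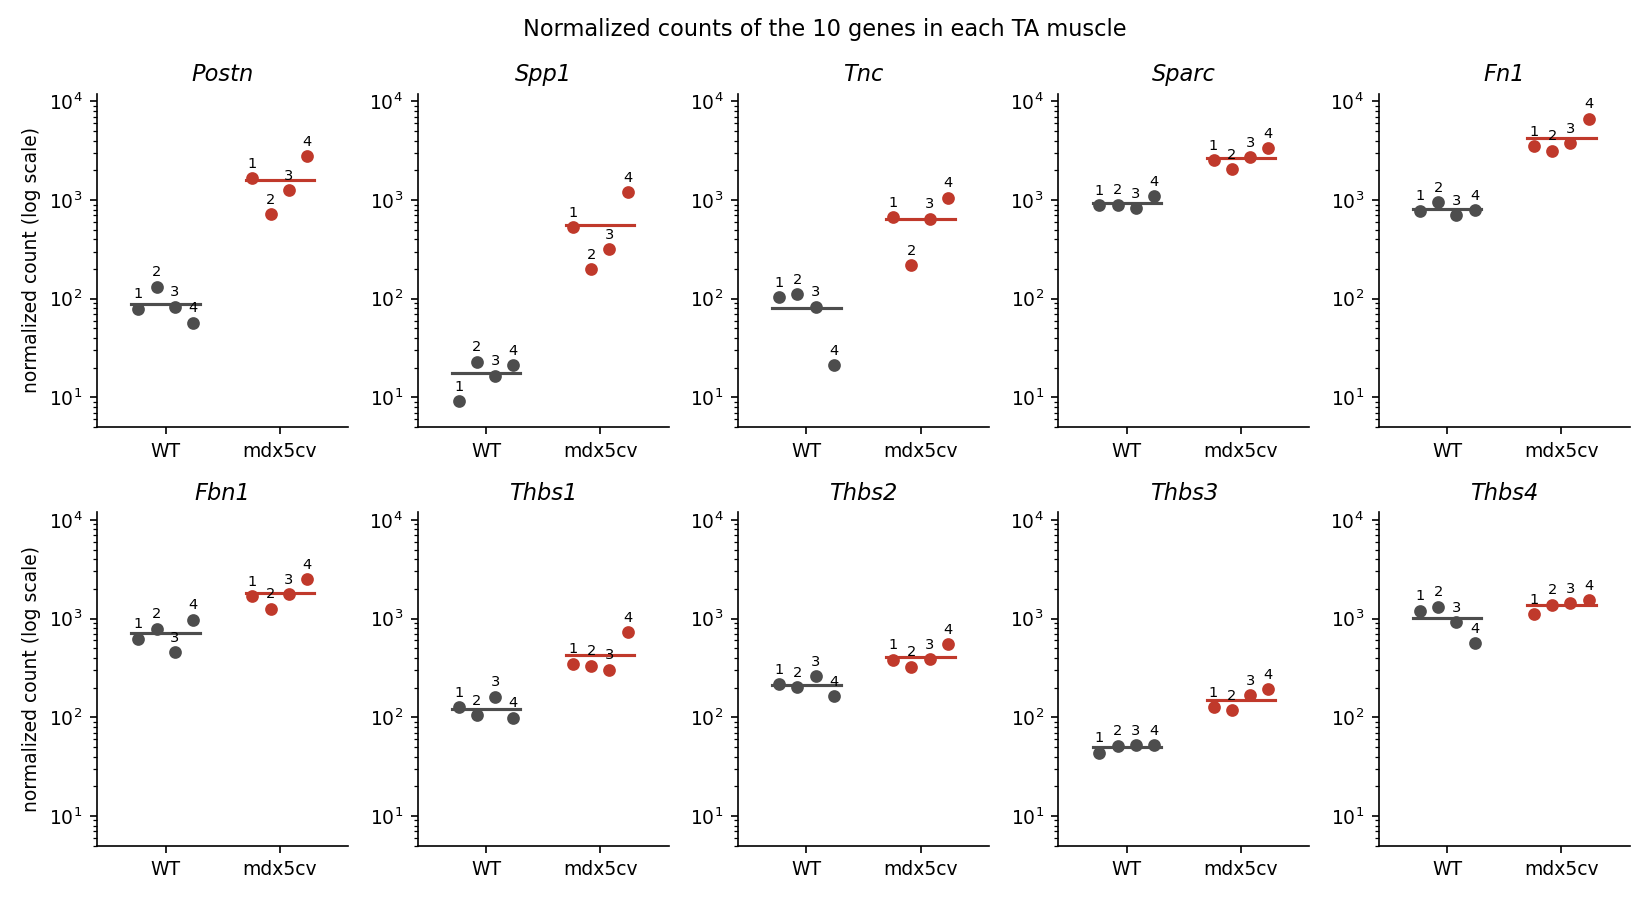
Normalized count (log scale) of each of the 10 genes in the 4 WT muscles (grey) and the 4 *mdx5cv* muscles (red). Points are single muscles numbered by replicate and lines are group means. *Thbs4* is the gene in which the groups overlap, and *mdx5cv* replicate 4 is the highest muscle in all 10 panels.

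Several of these proteins are bound by integrins through the tripeptide Arg-Gly-Asp (RGD), and the coding sequences of the principal transcripts were searched for it. An RGD was found in *Spp1*, *Fn1*, *Fbn1*, *Thbs1*, *Thbs2* and *Thbs4*, and none was found in *Postn*, *Tnc*, *Sparc* or *Thbs3*. The stretches listed here are 33 bases of the coding strand (GENCODE M21 transcripts), with the 9 bases of the RGD codons in capitals, and are shown, 1 for each gene with the motif. The further sites of *Fn1* (codon 2181) and *Thbs4* (codon 138) are not printed. The codon number is that of the arginine, counted from the start codon.
Spp1 (chromosome 5), codon 144: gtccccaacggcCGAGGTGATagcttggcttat
Fn1 (chromosome 1), codon 1614: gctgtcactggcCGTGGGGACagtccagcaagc
Fbn1 (chromosome 2), codon 1543: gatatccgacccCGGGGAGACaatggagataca
Thbs1 (chromosome 2), codon 927: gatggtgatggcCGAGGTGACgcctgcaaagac
Thbs2 (chromosome 17), codon 928: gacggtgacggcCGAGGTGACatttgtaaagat
Thbs4 (chromosome 13), codon 564: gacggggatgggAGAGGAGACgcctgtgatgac
The *Spp1* and *Fn1* sites are the known integrin sites of osteopontin and fibronectin. Presence of the motif did not separate the genes by their call, since *Tnc*, *Postn*, *Sparc* and *Thbs3* were called higher without it and *Thbs2* and *Thbs4* were not called with it.

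*Spp1*, which encodes osteopontin, a secreted cytokine-like protein made by macrophages and other cells, had the largest rise. It lies on chromosome 5 from 104435118 to 104441050 (GRCm38, plus strand). Its normalized counts were 9.17, 23.0, 16.6 and 21.2 in WT replicates 1 to 4 and 531, 198, 318 and 1195 in *mdx5cv* replicates 1 to 4. The groups were far apart, and the *mdx5cv* muscles also differed widely among themselves, with a coefficient of variation of 79.4% against 35.3% in WT. The mean rose 32.0-fold, from 17.5 ± 6.18 to 560 ± 445 (SD, n = 4), and by limma the log2 fold change was 4.67, its standard error 0.44 and the adjusted p 5.98e-06. The WT values rest on 8 to 21 reads per muscle. Without *mdx5cv* replicate 4, the mean of the other *mdx5cv* muscles was 19.9-fold that of WT and the log2 fold change was 4.20. The genes whose pattern over the 8 muscles was most like that of *Spp1*, by the root mean square difference of log2 values relative to the WT mean among 7631 genes, were *Gpnmb* (0.30), *Dclk1* (0.42) and *Mpeg1* (0.46).

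*Postn* encodes periostin, a fibroblast product that helps to cross-link collagen. The gene lies on chromosome 3 from 54361109 to 54391037 (plus strand). In WT replicates 1 to 4 its normalized counts were 79.1, 133, 82.9 and 57.2, and in *mdx5cv* they were 1662, 715, 1249 and 2779. The lowest *mdx5cv* muscle was thus well above the highest WT muscle. The mean rose 18.2-fold, from 88.0 ± 31.9 to 1601 ± 876 (SD, n = 4). By limma the log2 fold change was 4.07, its standard error 0.33 and the adjusted p 2.61e-06. Without *mdx5cv* replicate 4 the rise of the mean was 13.7-fold.

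*Tnc* encodes tenascin-C, an anti-adhesive glycoprotein of developing and injured tissue that adult muscle keeps mainly at its junctions with tendon. It lies on chromosome 4 from 63959785 to 64047015 (minus strand). Values in WT were 103, 112, 82.9 and 21.2, so that replicate 4 stood below the other WT muscles. In *mdx5cv* they were 671, 219, 647 and 1058, with the lowest in replicate 2. The mean rose 8.13-fold, from 79.8 ± 40.9 to 649 ± 343 (SD, n = 4). The change on the log2 scale was 3.04 with a standard error of 0.50, at an adjusted p of 0.00041 by limma. Leaving out WT replicate 4 gave a log2 fold change of 2.50 and leaving out *mdx5cv* replicate 2 gave 3.50.

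*Sparc* encodes osteonectin, a collagen-binding protein needed for normal collagen deposition. On chromosome 11 it spans 55394500 to 55423183 (minus strand). Its WT values of 890, 899, 827 and 1088 were tightly grouped, and the *mdx5cv* values of 2537, 2040, 2726 and 3360 all lay above them. The mean rose 2.88-fold, from 926 ± 112 to 2666 ± 546 (SD, n = 4). By limma the log2 fold change was 1.51, its standard error 0.14 and the adjusted p 6.33e-06. The fold was much smaller than that of *Spp1*, but because *Sparc* was already abundant in WT, it gained more normalized counts than *Spp1* or *Postn*. The study listed *Sparc* among genes chosen on these same libraries, so its direction here is not independent of that choice.

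*Fn1* encodes fibronectin, the fibril-forming glycoprotein on which other matrix proteins assemble. The gene lies on chromosome 1 from 71585520 to 71653200 (minus strand). WT replicates 1 to 4 had 783, 952, 703 and 784 normalized counts and *mdx5cv* replicates 1 to 4 had 3506, 3161, 3759 and 6641. Of the *mdx5cv* muscles, 3 lay close together and replicate 4 stood above them. The mean rose 5.30-fold, from 805 ± 105 to 4266 ± 1602 (SD, n = 4). The change on the log2 scale was 2.35 with a standard error of 0.19, at an adjusted p of 2.54e-06 by limma.

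*Fbn1* encodes fibrillin-1, the backbone of the microfibrils that carry elastin and store latent TGF-β complexes. It lies on chromosome 2 from 125300594 to 125507993 (minus strand). The WT values were 627, 790, 457 and 971, and those of *mdx5cv* were 1683, 1255, 1765 and 2496. The gap between the highest WT muscle (971) and the lowest *mdx5cv* muscle (1255) was smaller than the range within WT (457 to 971). The mean rose 2.53-fold, from 711 ± 220 to 1800 ± 515 (SD, n = 4). By limma the log2 fold change was 1.35, its standard error 0.22 and the adjusted p 0.000436. *Gm9913* on the opposite strand shares 2442 exon bases with *Fbn1* but had a mean normalized count of 1.17 over all muscles.

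**Figure D2:**
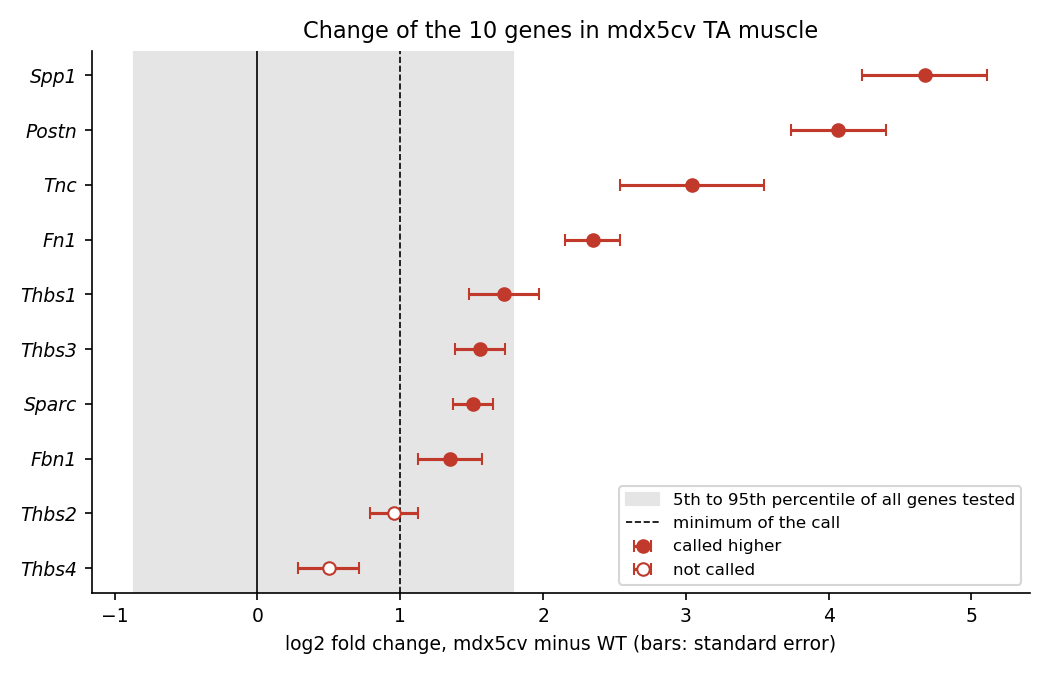
Log2 fold change of each of the 10 genes, *mdx5cv* minus WT, with its standard error (n = 4 muscles per group). Filled points passed the threshold, open points did not, and the grey band runs from the 5th to the 95th percentile of all 13677 genes tested (-0.86 to 1.79). *Spp1*, *Postn*, *Tnc* and *Fn1* lie above the band.

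The thrombospondins are multimeric calcium-binding proteins that fall into 2 subgroups. *Thbs1* and *Thbs2* encode trimers with properdin-like repeats, which bind CD36 and inhibit the growth of blood vessels, and thrombospondin-1 also activates latent TGF-β. *Thbs3* and *Thbs4* encode pentamers that lack those repeats and resemble *Comp*, the cartilage oligomeric matrix protein gene. The proteins translated from the principal transcripts followed this division. *Thbs1* (1171 residues) and *Thbs2* (1172 residues) were 62.8% identical and *Thbs3* (956 residues) and *Thbs4* (963 residues) 62.1% identical, whereas pairs taken across the subgroups were 46.9% to 48.2% identical. In *mdx5cv* each subgroup held 1 gene called higher and 1 that was not called.

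*Thbs1*, on chromosome 2 from 118111876 to 118127133 (plus strand), had WT values of 126, 104, 161 and 98.5. Its *mdx5cv* values were 350, 334, 302 and 728, with replicate 4 far above the other 3. The mean rose 3.50-fold, from 123 ± 28.5 to 428 ± 201 (SD, n = 4). The change on the log2 scale was 1.73 with a standard error of 0.24, at an adjusted p of 0.000132 by limma. Without *mdx5cv* replicate 4 the rise of the mean was 2.68-fold and the log2 fold change 1.44. The 3 genes most like *Thbs1* over the 8 muscles were *Kctd12*, *Man2b1* and *Tns3*, with root mean square differences of 0.23 to 0.24.

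*Thbs2*, on chromosome 17 from 14665500 to 14694235 (minus strand), was not called. Values were 215, 202, 261 and 164 in WT and 384, 325, 387 and 553 in *mdx5cv*, so the groups were separate. The means of 211 ± 39.9 in WT and 412 ± 98.2 in *mdx5cv* had a ratio of 1.96 (SD, n = 4). By limma its log2 fold change of 0.96 lay just under the minimum of 1, with a standard error of 0.17 and an adjusted p of 0.000728. The call turned on single muscles: the log2 fold change was 1.07 without WT replicate 3 and 1.06 without *mdx5cv* replicate 2. *Ppt1*, *Cmtm6* and *Spred1* had the patterns most like it (0.10 to 0.15).

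*Thbs3*, on chromosome 3 from 89215180 to 89226837 (plus strand), had the lowest counts of the 4 genes and the tightest WT group. Its values were 43.5, 51.6, 52.0 and 51.9 in WT and 126, 118, 167 and 193 in *mdx5cv*. The mean rose 3.03-fold, from 49.7 ± 4.13 to 151 ± 35.4 (SD, n = 4). By limma the log2 fold change was 1.56, its standard error 0.17 and the adjusted p 2.13e-05. *Eno1*, *Maged2* and *Mrc2* were the genes most like *Thbs3* (0.16 to 0.17). *Mtx1* on the opposite strand shares 318 exon bases with *Thbs3* and had a mean normalized count of 109. The kit was stranded, but whether strand was used in counting is not stated, so reads in this overlap are uncertain. *Thbs3*, too, is on the list that the study chose on these libraries.

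*Thbs4*, on chromosome 13 from 92751590 to 92794818 (minus strand), encodes a protein of tendon and muscle that is known to protect the sarcolemma. Its values were 1206, 1321, 923 and 566 in WT and 1103, 1374, 1434 and 1526 in *mdx5cv*. WT replicates 1 and 2 lay within the range of *mdx5cv*, and WT replicate 4 was far below. The mean was 1004 ± 336 in WT against 1359 ± 182 in *mdx5cv* (SD, n = 4). The change on the log2 scale was 0.50 with a standard error of 0.21, at an adjusted p of 0.0795 by limma. It did not pass the test. Single muscles moved this value: it was 0.25 (adjusted p = 0.201) without WT replicate 4 and 0.65 (adjusted p = 0.0259) without WT replicate 2, both from limma. The genes with patterns most like *Thbs4* were *Serpinf1*, *Gpm6b* and *C1ra*, each with a root mean square difference of 0.17.

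Levels of different genes were compared per kilobase of exon, with the union of all annotated exons as the length. This union can be longer than the mRNA present. It was 8702 bases for *Postn*, with 811 codons, and 3289 bases for *Thbs4*, with 963 codons. The order of the genes below therefore depends on the annotation as well as on the counts. In WT, *Thbs4* (305 ± 102 normalized counts per kilobase) and *Sparc* (245 ± 29.7) stood above the other 8 genes, whose means ran from 10.1 for *Postn* to 68.9 for *Fn1*. *Thbs4* and *Sparc* were not apart beyond their spread in WT (SD, n = 4). In *mdx5cv*, *Sparc* was highest at 704 ± 144, followed by *Thbs4* at 413 ± 55.3, *Fn1* at 365 ± 137 and *Spp1* at 340 ± 270, of which the last 3 lay within each other's spread (SD, n = 4). By this measure *Postn*, *Spp1*, *Tnc* and *Thbs3* all had WT means between 10.1 and 10.6 per kilobase. In *mdx5cv* the same genes had means of 184, 340, 83.5 and 31.3. Their likeness in WT rests on the exon lengths used, such as 8702 bases for *Postn* and 1648 for *Spp1*.

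The makeup of the thrombospondin mRNA was taken as each gene's share of the 4 genes' summed level per kilobase. The size of each share thus depends on the same exon lengths. *Thbs4* held 85.8%, 87.6%, 79.0% and 77.3% in WT replicates 1 to 4 and 70.8%, 76.9%, 75.8% and 66.0% in *mdx5cv*. All 4 *mdx5cv* muscles were thus below all WT muscles, although by 0.461 percentage points at the closest. The share of *Thbs1* was 5.84% ± 1.84 in WT and 12.0% ± 3.67 in *mdx5cv*, and again the groups did not overlap (8.63% was the lowest in *mdx5cv* and 7.48% the highest in WT). *Thbs2* held 8.63% ± 2.21 and 10.2% ± 1.42, and *Thbs3* held 3.08% ± 1.24 and 5.43% ± 0.653 (SD, n = 4), with overlapping values in both. The summed level itself was 366 ± 105 per kilobase in WT against 574 ± 95.8 in *mdx5cv* (SD, n = 4), so *Thbs4* made up less of a larger total.

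**Figure D3:**
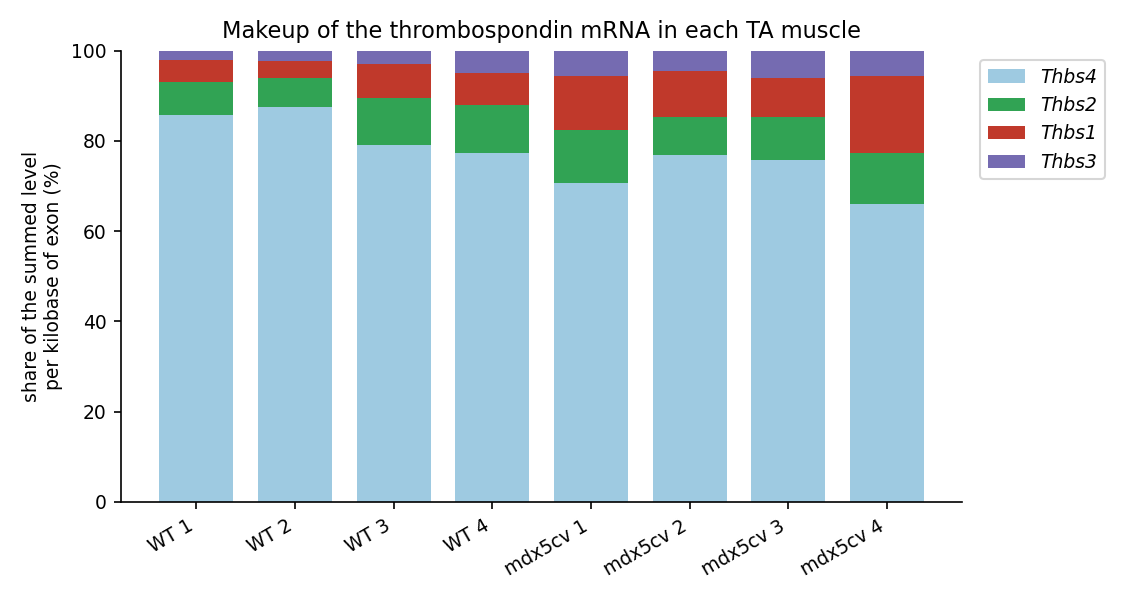
Share of each thrombospondin gene in the summed level per kilobase of exon (%), in each of the 4 WT and 4 *mdx5cv* muscles. The *Thbs4* share is 77.3% to 87.6% in WT and 66.0% to 76.9% in *mdx5cv*, and the *Thbs1* share reaches 17.1% in *mdx5cv* replicate 4.

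Whether 2 thrombospondin genes changed unequally was tested on the log2 ratio of their counts within each muscle, in which the scaling of the library cancels. The 6 pairs were compared by a two-sided exact permutation test over the 70 assignments of muscles to groups, with Benjamini-Hochberg adjustment over the pairs. The log2 change of *Thbs1* was larger by 1.23 ± 0.38 (standard error) than that of *Thbs4* and by 0.77 ± 0.17 than that of *Thbs2*, both at an exact p of 0.0286, the smallest that the design allows. *Thbs3* exceeded *Thbs2* by a log2 difference of 0.60, at the same exact p. After adjustment these 3 pairs had p = 0.0571 by the exact permutation test, short of 0.05. *Thbs3* and *Thbs4* differed by 1.06 (exact p = 0.0571, adjusted p = 0.0857) and *Thbs2* and *Thbs4* by 0.46 (exact p = 0.2, adjusted p = 0.24). *Thbs1* and *Thbs3* differed by 0.17 with a standard error of 0.28 (exact p = 0.657), so the error was larger than the difference.

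All 10 genes reached their highest *mdx5cv* value in replicate 4, and 8 of the 10 had their lowest in replicate 2. Replicate 4 held the highest *mdx5cv* value for 34.7% of all genes tested and for 83.6% of the genes called higher. Replicate 2 held the lowest for 24.7% and 39.3% of them, and replicate 3 for 23.3% and 45.5%. The excess over the mean of the other 3 *mdx5cv* muscles ran from 1.17-fold in *Thbs4* to 3.42-fold in *Spp1*, with 2.30-fold in *Postn* and 2.22-fold in *Thbs1*. Between 8 and 9 of the 10 genes were called higher whichever muscle was left out. In WT the order of the muscles differed from gene to gene, with 5 genes highest in replicate 2 and 5 lowest in replicate 4.

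Some markers of other cell types also differed between the groups. The summed normalized count of 12 genes listed as macrophage markers was 523 to 795 in WT and 2713 to 6586 in *mdx5cv*, with 11 called higher and 1, *Cd163*, lower. Among them were *Cd68*, *C1qb* and *Ptprc*, of which *Ptprc* is shared by leukocytes in general. The 10 fibroblast and fibro-adipogenic progenitor markers summed to 7281 to 10979 in WT and 23557 to 42065 in *mdx5cv*, and 4 of them were called higher, led by *Col1a1* (log2 fold change 3.13), *Col3a1* (3.09) and *Col1a2* (2.29). *Dcn*, *Ly6a*, *Cd34*, *Pi16*, *Pdgfra* and *Dpt* of that list were not called. Of these, *Pdgfra* (log2 fold change 0.63) and *Dpt* (0.46) were higher at an adjusted p under 0.05 in limma, short of the minimum change. Besides the 3 collagens, *Lum* was called higher (log2 fold change 1.19). Without these 3 collagens, the other 7 markers summed to 3040 to 6716 in WT and 3834 to 5026 in *mdx5cv*, and these ranges overlapped. Most of that sum was *Dcn*, which averaged 3090 in WT and 2488 in *mdx5cv*, against 4730 and 4670 for the 7 together. The 7 markers of regenerating fibers, such as *Myh3*, *Myh8* and *Mymk*, were all called higher, with sums of 198 to 229 in WT and 2539 to 9487 in *mdx5cv*. In *mdx5cv* replicate 4 these 3 sums were 2.09, 1.51 and 2.52 times the mean of the other *mdx5cv* muscles. The part of these cells in the changes of the 10 genes was not tested.

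The other marker lists held few calls. At an adjusted p under 0.05 in limma with no minimum change, 2854 of all 13677 genes tested were higher and 2743 lower. Endothelial markers summed to 2908 to 3519 in WT and 1793 to 2302 in *mdx5cv*, with 0 of 7 called in either direction by limma, edgeR or DESeq2. All 7 were lower at an unadjusted p under 0.05 in limma and 6 at an adjusted p under 0.05, short of the minimum change. Smooth muscle and pericyte markers summed to 6185 to 7497 and 4467 to 5164, with 0 of 6 called by limma or edgeR and 1 lower by DESeq2. All 6 passed an adjusted p under 0.05 in limma, 3 higher and 3 lower, short of the minimum change. Mature fast fiber markers had 0 of 8 called by any of these tools. Of these, 3 (*Ckm*, *Tnnt3* and *Actn3*) were lower at an adjusted p under 0.05 in limma, short of the minimum change. The sum of the 8 in *mdx5cv* replicate 4 was 0.679 times the mean of the other *mdx5cv* muscles.

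Tendon cell markers were examined because *Tnc*, *Thbs4* and *Comp* are strongly expressed where muscle meets tendon. The 8 markers summed to 1018, 1041, 839 and 318 in WT replicates 1 to 4 and to 508, 874, 837 and 889 in *mdx5cv*, and the groups overlapped. Of the 8, *Egr1* was called higher and *Chad* lower. WT replicate 4, the lowest muscle by the tendon markers, was also the lowest WT muscle for *Thbs4* (566), *Tnc* (21.2) and *Comp* (16.9). In *mdx5cv*, replicate 1 was lowest by the tendon markers and also for *Thbs4* (1103) and *Comp* (60.2), but not for *Tnc*. The part of tendon in these values was not tested.

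**Figure D4:**
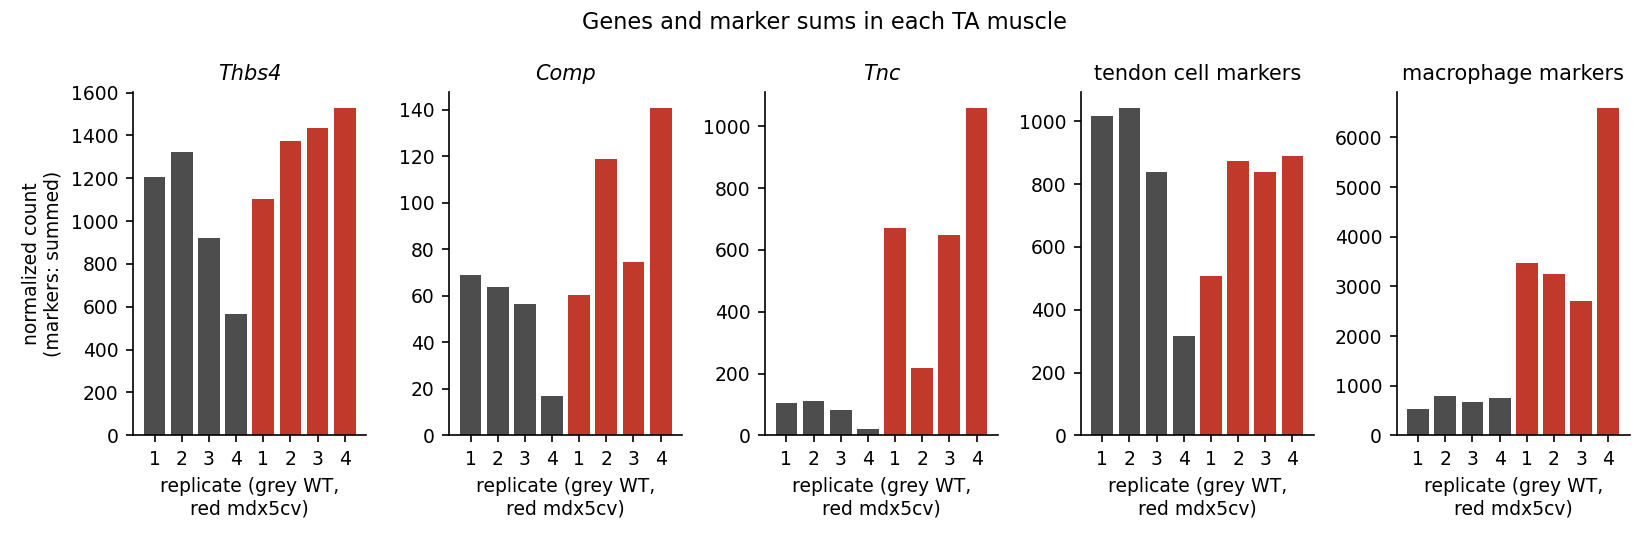
Normalized counts of *Thbs4*, *Comp* and *Tnc* and summed normalized counts of the tendon cell and macrophage markers in each of the 4 WT muscles (grey) and 4 *mdx5cv* muscles (red). WT replicate 4 is the lowest WT muscle in the first 4 panels, whereas the macrophage sum is 523 to 795 in WT and 2713 to 6586 in *mdx5cv*.

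The other matricellular genes had log2 fold changes of both signs. Of 28 on the list, 21 were tested, of which 6 were called higher (*Lgals3*, *Tnn*, *Ccn4*, *Fbln7*, *Tgfbi* and *Ccn5*) and 0 lower by limma and edgeR, with 4 lower at an unadjusted p under 0.05. Their median log2 fold change was 0.39. *Lgals3*, the gene of galectin-3, which macrophages make in quantity, had 16.0, 34.0, 16.6 and 61.4 normalized counts in WT and 922, 589, 677 and 1631 in *mdx5cv* (log2 fold change 4.95, standard error 0.39). Its rise was close to that of *Spp1*. *Tgfbi*, a TGF-β-induced integrin ligand, rose from 190 ± 24.9 to 532 ± 177 (SD, n = 4), or by 1.44 on the log2 scale. *Comp*, the closest relative of *Thbs3* and *Thbs4*, averaged 51.4 ± 23.5 in WT against 98.6 ± 37.5 in *mdx5cv* (SD, n = 4) and missed the test, with a log2 fold change of 1.02 and an adjusted p of 0.0508 by limma. *Sparcl1*, *Spock2*, *Fbln5* and *Efemp1* were lower at an adjusted p under 0.05 in limma, short of the minimum change. Their log2 fold changes ran from -0.98 to -0.42. At that adjusted p and with no minimum change, 8 of the 21 genes were higher and 4 lower. Among all 13677 genes tested these counts were 2854 and 2743. The *Sparc* relatives *Sparcl1* and *Spock2* had the opposite sign to *Sparc*. With every library scaled to an equal total, 9 genes were called higher and 0 lower, while the share of all genes tested that was called higher went from 10.3% to 16.5%.

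The partners of fibrillin-1 in microfibrils and elastic fibers, which include microfibril-associated proteins, latent TGF-β binding proteins and cross-linking enzymes, had 8 of 16 called higher by limma and 0 lower, with none lower at an unadjusted p under 0.05 or by edgeR or DESeq2. Over all genes tested, the shares called higher and lower by limma were 10.3% and 3.27%. The median log2 fold change of the partners was 0.79. Among the called genes whose normalized counts averaged 100 or more, the largest changes were those of *Loxl1*, *Emilin1* and *Lox*. *Ltbp2* (log2 fold change 3.65) and *Mfap4*, with lower counts, were also called higher. *Loxl1*, a cross-linking enzyme of elastin, rose from 76.6 ± 13.3 to 334 ± 132, *Emilin1*, an elastic fiber glycoprotein, from 54.2 ± 16.1 to 194 ± 66.0, and *Lox*, the lysyl oxidase of collagen and elastin, from 70.6 ± 9.35 to 233 ± 76.3 (SD, n = 4). *Eln*, the gene of elastin itself, averaged 110 ± 45.7 in WT against 136 ± 35.0 in *mdx5cv* (SD, n = 4) and was not called. *Fbn2*, the fibrillin of development, was under the filter, with 1.10 to 5.53 normalized counts in WT and 11.7 to 18.4 in *mdx5cv*.

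Among 23 receptors of these proteins, 5 were called higher and 3 lower, with a median log2 fold change of 0.46. The shares over all genes tested were 10.3% and 3.27%. *Cd44*, a receptor of osteopontin and hyaluronan, had 77.9, 79.0, 104 and 81.6 normalized counts in WT and 606, 453, 493 and 1048 in *mdx5cv*. By limma its log2 fold change was 2.84, the standard error 0.22 and the adjusted p 1.50e-06. *Itga5*, which pairs with *Itgb1* as the fibronectin receptor, rose from 83.0 ± 9.24 to 254 ± 86.2 (SD, n = 4), and *Stab1*, a scavenger receptor of SPARC, from 342 ± 96.5 to 1004 ± 414 (SD, n = 4). The other genes called higher were *Sdc3* and *Lrp1*. *Stab2*, *Cd36* and *Itga4* were called lower, with log2 fold changes of -1.18, -1.09 and -1.02. *Cd36*, the receptor of thrombospondin-1, is also abundant in capillaries. *Itgav*, *Itgb1* and *Cd47*, which bind several of the 10 proteins, had log2 fold changes of 0.65, 0.60 and 0.83, past the adjusted p and short of the minimum change. By edgeR and DESeq2, 2 receptors were called lower, and *Itga4* was not among them. With equal totals 9 receptors were called higher and 0 lower, a scaling under which 16.5% of all genes tested were called higher and 1.54% lower.

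**Figure D5:**
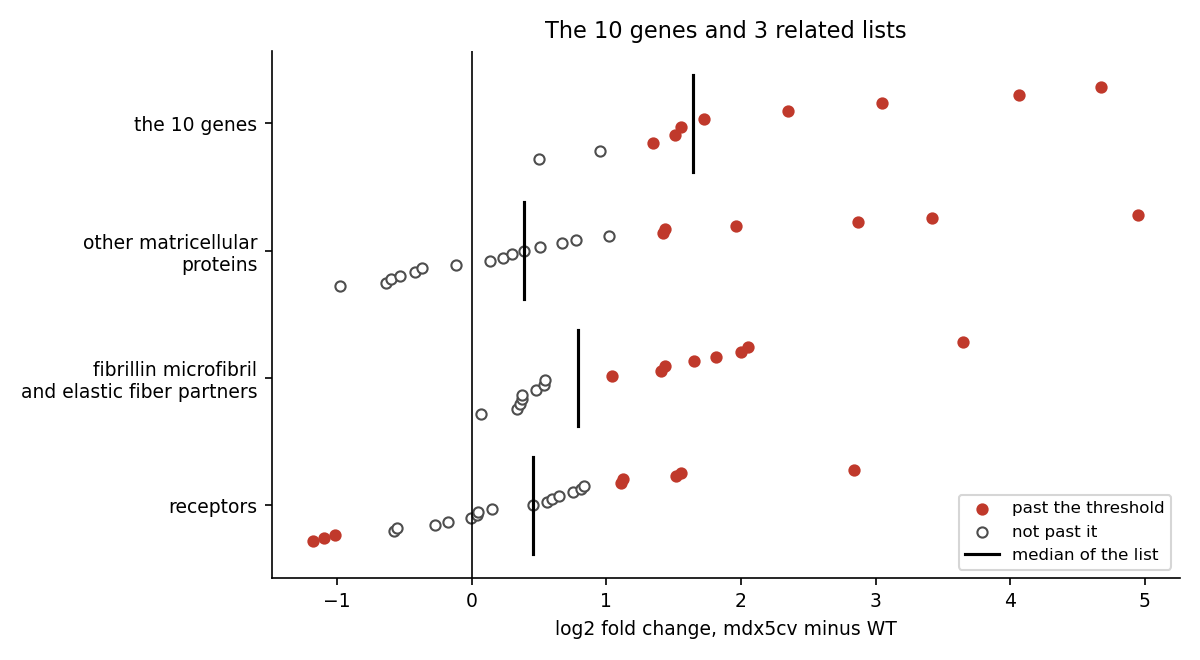
Log2 fold change, *mdx5cv* minus WT, of the 10 genes and of the tested genes of 3 related lists, sorted within each list. Red points are past the threshold, open points are not, and vertical bars are medians (1.64, 0.39, 0.79 and 0.46 from top to bottom). Past the threshold, lower genes are found among the receptors and not in the other 3 rows.

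The promoters of the group were examined for short motifs that are widely used in matrix and muscle genes. RefSeq windows of 300 bases (GRCm38.p6, 250 before and 50 after an annotated start, written on the strand of the gene) were matched for 8 of the 10 genes, with 11 windows in all, and *Thbs1* and *Fn1* had none. *Postn*, which rose 18.2-fold, and *Thbs4*, which was not called and was with *Sparc* among the abundant genes of the group in WT, are shown because their windows differ in these motifs. Capitals mark any motif found.
Postn, chr3:54360857-54361156, plus strand: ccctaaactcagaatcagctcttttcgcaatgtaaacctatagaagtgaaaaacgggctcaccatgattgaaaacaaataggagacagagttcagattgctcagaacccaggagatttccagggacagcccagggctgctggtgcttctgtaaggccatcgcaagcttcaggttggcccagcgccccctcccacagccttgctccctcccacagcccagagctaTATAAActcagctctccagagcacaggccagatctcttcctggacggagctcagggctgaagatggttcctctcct
Thbs4, chr13:92794769-92795068, minus strand: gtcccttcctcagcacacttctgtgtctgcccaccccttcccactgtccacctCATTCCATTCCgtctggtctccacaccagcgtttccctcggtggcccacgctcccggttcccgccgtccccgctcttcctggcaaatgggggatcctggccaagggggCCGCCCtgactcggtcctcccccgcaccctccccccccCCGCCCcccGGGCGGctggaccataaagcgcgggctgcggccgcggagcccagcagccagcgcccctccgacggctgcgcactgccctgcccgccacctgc
The *Postn* window shown holds a TATAAA that begins 26 bases before the start, and a further window of *Postn* holds none of the motifs. The *Thbs4* window holds GGGCGG or its complement at 89, 51 and 42 bases before the start and CATTCC, the MCAT motif of TEAD factors, at 197 and 192 bases before it, as matches that share 1 base. Both strands were searched, and none of these motifs contains another. TATAAA or its complement was found in 5 of the 11 windows (in *Postn*, *Tnc*, *Spp1* and *Thbs2*), against 13.6% of all 32851 windows. Outside *Postn* these matches began 126 to 211 bases before the start. Only these exact letters were searched, so variants such as the TATATAA in a window of *Tnc* were not counted. GGGCGG was found in 5 of the 11 windows, against 35.7% of all windows, and CATTCC in 1, against 14.7%. Besides *Thbs4*, the windows with GGGCGG belong to *Fbn1*, *Thbs3* and *Tnc*, which were called higher. The AP-1 motif TGACTCA (in 5.20% of all windows), the CArG box of SRF (1.63%) and the palindrome GTCTAGAC bound by SMAD proteins (0.213%) were in 0 of the 11. The 2 windows of *Tnc* overlap and are not independent, and these matches describe letters only. The windows of *Sparc* and *Fbn1* and a window of *Spp1* lie inside the gene spans given above, away from the outermost start.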

How the data were processed

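Bulk RNA-seq of TA muscle was analysed for 4 WT and 4 *mdx5cv* muscles, grouped by their labels. The authors deposited a signal per gene, the read count divided by a DESeq2 size factor, for all 55401 genes. The submitters' processing notes name FastQC, Trim Galore 0.6.4, STAR 2.6.0c, SAMtools 1.9, featureCounts, MultiQC 1.6, DESeq2 1.26.0, R 3.6.2 and mm10, without their roles. The extract label states a reversely stranded kit. Whether counting used strand, and the annotation release, are not given in the sources used here. Whole reads were recovered for 100% of the values within 0.01 of a read, with size factors of 0.873 to 0.944 in WT and 1.06 to 1.25 in *mdx5cv*.

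The main test was that of limma 3.58.1 (R 4.3.3), two-sided and with a variance trend, applied to log2(normalized count + 1). It covered 13677 genes, those whose normalized count averaged at least 10. This scale understates the change of low genes. The minimum fold change is the one the study's methods state for its other RNA-seq dataset. On the recovered reads, the quasi-likelihood test of edgeR 4.0.16 called 1447 genes higher and 460 lower, and DESeq2 1.42.0 called 1920 higher and 582 lower, against 1414 and 447 by limma. The DESeq2 adjusted p was left missing where it gave none, so its counts are out of 19036 genes. Pairs of thrombospondins were compared by an exact permutation test. Gene IDs were matched to GENCODE M21 (GRCm38) with versions ignored, for 55141 genes, and levels per kilobase use the union of exons. Identity was counted over aligned residues of the translated principal transcripts with Biopython 1.88. Other steps used scipy 1.17.1, numpy 2.4.6, matplotlib 3.10.9 and pandas 2.3.3 under Python 3.11.15. The tests were tried on simulated data first.

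The 10 genes and the lists were chosen with earlier results of these data known. Named genes are the 10, *Dmd*, *Comp*, *Fbn2*, the 3 largest changes with a mean of at least 100 among the called genes of each list, and the 3 most similar genes for *Spp1* and the thrombospondins. *Cd163*, *Egr1*, *Chad*, *Eln*, *Itgav*, *Itgb1*, *Cd47*, *Stab2*, *Cd36*, *Itga4* and the other list genes were named after their values were seen. Alternatives were other pseudocounts, filters, scalings, minimum changes, no variance trend, a replicate block, each muscle left out, and the other tools. The result of 1 marker list is not reported here.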

Additional observations from a re-analysis of the deposited data

Results flagged for a closer look

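Among 42 sets of 4 muscles (each of the 10 genes, and each of 11 marker and pathway sums, in each group), 3 held a muscle farther from its neighbour than Dixon's 95% critical value allows. Chance alone gives about 2.1 such sets in 42. *Thbs1* was flagged in *mdx5cv*, where replicate 4 had a log2 normalized count of 9.51 and the other muscles 8.24 to 8.46. *Thbs3* was flagged in WT, where replicate 1 had 5.48 and the others 5.72 to 5.73, a gap that stands out because those 3 muscles were so alike. The summed tendon cell markers were flagged in *mdx5cv*, where replicate 1 had a log2 sum of 8.99 and the others 9.71 to 9.80.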

How the results depend on the processing

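No change of the 10 genes reversed under any alternative. The count of 8 called higher was 8 or 9 with each muscle left out, 7 with a normalized count of at least 10 required in every sample (*Spp1* was then not tested), and 4 at a minimum log2 fold change of 2. *Thbs2* was called with equal totals (1.31) and without WT replicate 3 (1.07) or *mdx5cv* replicate 2 (1.06), and *Thbs4* ranged from 0.25 to 0.86 (adjusted p = 0.00323 to 0.201). With equal totals the median change over all genes tested was 0.36 on the log2 scale, against 0.00. Called-higher counts of other matricellular genes were 6 to 7 with a muscle left out, and 3 with at least 10 in every sample and at a minimum of 2. Their called-lower count of 0 was 0 to 1 with a muscle left out, 1 with no filter and 4 with no minimum. With no minimum, 2854 of all 13677 genes tested were higher and 2743 lower. Fibrillin partners called higher numbered 5 with at least 10 in every sample and 2 at a minimum of 2. Receptors called higher numbered 3 to 6 with a muscle left out (3 without *mdx5cv* replicate 4), 9 with equal totals, 11 with no minimum and 1 at a minimum of 2, and the 3 called lower numbered 2 to 3 with a muscle left out, 2 by edgeR and DESeq2 and with a pseudocount of 10, and 0 with equal totals or at a minimum of 2.

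With the replicate number as a block, 8 of the 10 genes were called higher and 0 lower, and over all genes 1428 were higher and 454 lower. Deviations of WT and *mdx5cv* muscles with the same number correlated at 0.0501, 0.0309, 0.0722 and 0.146, and not every muscle correlated best with its own number, so the numbers were not taken to pair the muscles. The thrombospondin pair differences kept their sign with each muscle left out, as values with no test. Low WT counts of *Spp1* limit the precision of its fold change.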
